A study of Mus musculus with 8 samples.

Results

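The genes that encode collagen alpha chains were compared between hypothyroid mice and hypothyroid mice given thyroid hormone. They were taken by symbol, as Col followed by a type number, the letter a and a chain number, and 44 of the 55341 gene symbols in the count files matched. RNA came from sorted nuclei of GABAergic neurons, the inhibitory neurons of the cortex, in juvenile mice. Both groups carried a reporter for a nuclear fluorescent protein that Cre recombinase switched on in GABAergic neurons, and both were made hypothyroid with propylthiouracil (PTU), which blocks the making of thyroid hormone and was given to their mothers during gestation. The PTU group (mice 9 to 12, n = 4) received no thyroid hormone, and mice 13 to 16 formed the PTU+TH group (n = 4), injected with it into the abdominal cavity 24 h before the brain was collected. No euthyroid mice are among these samples, so every value of the PTU+TH group is relative to hypothyroid mice. The labels name no Cre driver, strain, sex, litter or hormone dose, and each library came from a separate mouse.

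Collagens are matrix proteins whose chains wind around each other into a stiff helix, and the chain genes that a cell transcribes set which collagen types it can assemble. Types I, II, III, V, XI, XXIV and XXVII are fibril-forming, type IV builds the sheets of basement membranes, and type VI forms beaded filaments close to cell surfaces. The FACIT collagens, among them types IX, XII, XIV, XVI and XIX, sit on the surface of fibrils, while types XIII, XVII, XXIII and XXV span the cell membrane. Most of these proteins were first studied in cartilage, skin, muscle and vessels. In the cortex, neurons transcribe several of them, and the type XIX chain of interneurons is known for a part in the formation of inhibitory synapses.

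Of the 44 chain genes, 42 had enough counts to be tested, and 6 of these (14.3%) were called. A call means that the quasi-likelihood test of edgeR, adjusted over all genes tested, gave a p under 0.05. Among all 17355 genes tested the share was 2.12%. Called higher in PTU+TH were Col9a2, Col11a1, Col11a2 and Col24a1, 4 genes or 9.52% of the members against 1.49% of all genes. Called lower were Col6a5 and Col6a2, 2 genes or 4.76% against 0.634%. In sorted nuclei in bulk, fewer nuclei of a subtype and less RNA per nucleus cannot be told apart.

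All 6 calls among the chains were made again with any 1 of the 8 libraries removed. Their highest adjusted p there was 0.0407, for Col6a2. When PTU+TH mice 15 and 16, which had no Y-linked counts, were both removed, 3 of 6 were called, Col9a2, Col11a1 and Col24a1, while Col11a2, Col6a2 and Col6a5 kept their direction, at 0.79, -0.64 and -0.80 in log2 fold change, and missed the threshold (edgeR adjusted p = 0.0832, 0.18 and 0.139).

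The windows around the start sites of the 6 called genes are printed because the results turn on these genes. They come from RefSeq on build GRCm38.p6 and run from 250 bases before to 50 bases after a start site, 5′ to 3′ on the strand of the gene, with capitals marking AGGTCA or its reverse complement, the half-site that thyroid hormone receptors bind. For Col6a2, which has windows for more than a single start, the one nearest the 5′ end in GENCODE is shown. The RefSeq start sites of Col9a2 and Col11a2 lie 181 and 299 bases from the 5′ ends in GENCODE. The window of Col11a2 ends before its GENCODE body begins.
Col9a2, chr4:121039316-121039615, plus strand: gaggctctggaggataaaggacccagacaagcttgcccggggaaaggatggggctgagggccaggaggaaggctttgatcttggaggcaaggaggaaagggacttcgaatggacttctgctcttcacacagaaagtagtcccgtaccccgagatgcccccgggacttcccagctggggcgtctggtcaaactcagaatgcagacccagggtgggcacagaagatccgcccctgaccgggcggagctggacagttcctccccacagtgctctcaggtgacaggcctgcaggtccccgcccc
Col11a1, chr3:114030290-114030589, plus strand: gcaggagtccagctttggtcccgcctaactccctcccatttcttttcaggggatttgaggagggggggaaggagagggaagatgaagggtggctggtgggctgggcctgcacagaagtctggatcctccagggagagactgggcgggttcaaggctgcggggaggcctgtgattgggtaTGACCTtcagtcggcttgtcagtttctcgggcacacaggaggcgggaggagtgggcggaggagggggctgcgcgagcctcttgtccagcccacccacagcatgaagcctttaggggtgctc
Col11a2, chr17:34038888-34039187, plus strand: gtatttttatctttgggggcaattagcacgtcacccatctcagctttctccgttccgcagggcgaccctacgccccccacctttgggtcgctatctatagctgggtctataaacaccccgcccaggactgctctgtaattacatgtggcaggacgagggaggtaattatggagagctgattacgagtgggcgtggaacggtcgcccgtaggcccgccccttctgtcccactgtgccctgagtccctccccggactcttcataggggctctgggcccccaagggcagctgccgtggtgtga
Col24a1, chr3:145292222-145292521, plus strand: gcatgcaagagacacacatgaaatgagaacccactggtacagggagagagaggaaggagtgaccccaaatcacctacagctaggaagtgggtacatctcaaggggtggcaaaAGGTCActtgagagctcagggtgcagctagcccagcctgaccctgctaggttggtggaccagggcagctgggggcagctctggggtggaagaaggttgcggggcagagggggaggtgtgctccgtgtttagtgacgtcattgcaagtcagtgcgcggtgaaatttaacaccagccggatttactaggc
Col6a2, chr10:76623581-76623880, minus strand: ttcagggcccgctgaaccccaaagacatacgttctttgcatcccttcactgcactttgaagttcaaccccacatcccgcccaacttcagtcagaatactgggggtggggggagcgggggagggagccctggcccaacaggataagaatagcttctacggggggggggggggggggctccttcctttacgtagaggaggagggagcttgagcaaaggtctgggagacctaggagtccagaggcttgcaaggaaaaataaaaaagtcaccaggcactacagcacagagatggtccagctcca
Col6a5, chr9:105960594-105960893, minus strand: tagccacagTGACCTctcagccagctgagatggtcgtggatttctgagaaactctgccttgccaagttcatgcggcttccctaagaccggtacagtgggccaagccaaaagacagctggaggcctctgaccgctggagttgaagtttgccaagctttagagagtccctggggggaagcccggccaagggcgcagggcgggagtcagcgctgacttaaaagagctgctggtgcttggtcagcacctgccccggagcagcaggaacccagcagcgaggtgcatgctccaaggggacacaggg

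Capitals are present in the windows of Col11a1, Col24a1 and Col6a5 and absent from those of Col9a2, Col11a2 and Col6a2. The first base of the match as printed lies 71 bases before the start site in Col11a1, 138 in Col24a1 and 241 in Col6a5. AGGTCA reads along the printed strand in Col24a1 and along the strand opposite to the printed one in Col11a1 and Col6a5. RefSeq windows were found for 35 of the 44 genes, 38 windows in all, and AGGTCA was read on both strands in 8 of them (21.1%), against 16.3% of 32851 windows of the same length over the genome. A direct repeat of the half-site with 4 bases between the copies was in 0 of the 38 collagen windows and in 5 of the 32851. Half-sites inside the direct repeat also count as AGGTCA. A match describes letters and is not evidence of a bound site, and a window without one says nothing about the factor.

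Library totals ranged from 21762810 to 29084071 counts, and collagen chains took 0.148% to 0.173% of them. The summed level of the 44 chains was 1592 ± 208 CPM (read counts scaled to library size) in PTU, as against 1652 ± 53.9 CPM in PTU+TH (mean ± SD, n = 4 each). Gad1 and Gad2, the defining enzymes of GABAergic neurons, were not called (edgeR adjusted p = 0.669 and 0.802). Gad1 was at 471 ± 51.7 CPM in PTU against 422 ± 22.3 CPM in PTU+TH, and Gad2 at 427 ± 25.9 CPM against 458 ± 24.3 CPM (SD, n = 4 each). The 7 excitatory neuron markers summed to 37.1 to 107 CPM in PTU and 45.7 to 120 CPM in PTU+TH. Y-linked counts summed to 0 in PTU+TH mice 15 and 16 and were at least 7960 in the other 6 libraries, so mice without Y-linked counts are in 1 group only. Summed markers of the SST class of interneurons did not overlap between the groups, at 1493 to 1637 CPM in PTU and 1295 to 1433 CPM in PTU+TH, and rest mostly on Reln (1021 ± 125 and 875 ± 68.5 CPM, not called) and Calb1 (198 ± 22.7 and 120 ± 12.3 CPM, called lower). Sst itself was at 233 ± 33.5 CPM in PTU, as against 219 ± 16.0 CPM in PTU+TH (SD, n = 4 each; edgeR adjusted p = 0.85), while Npy and Chodl of the same list had log2 fold changes above 0 (0.47 and 0.31, not called). Sums of the other classes overlapped, in PTU and PTU+TH, at 461 to 621 and 499 to 640 CPM for PV, 232 to 352 and 219 to 233 CPM for VIP, and 259 to 449 and 399 to 436 CPM for LAMP5. Single markers in these classes were called all the same, Syt2 of the PV class higher (8.38 ± 2.32 and 18.5 ± 2.40 CPM), Gabrd of the LAMP5 class higher (37.1 ± 5.22 and 97.9 ± 6.63 CPM) and Htr3a of the VIP class lower (7.82 ± 2.38 and 3.63 ± 0.90 CPM), with edgeR adjusted p of 0.00603, 1.67e-05 and 0.0344. The part of class composition in the collagen results was not tested.

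**Figure D1:**
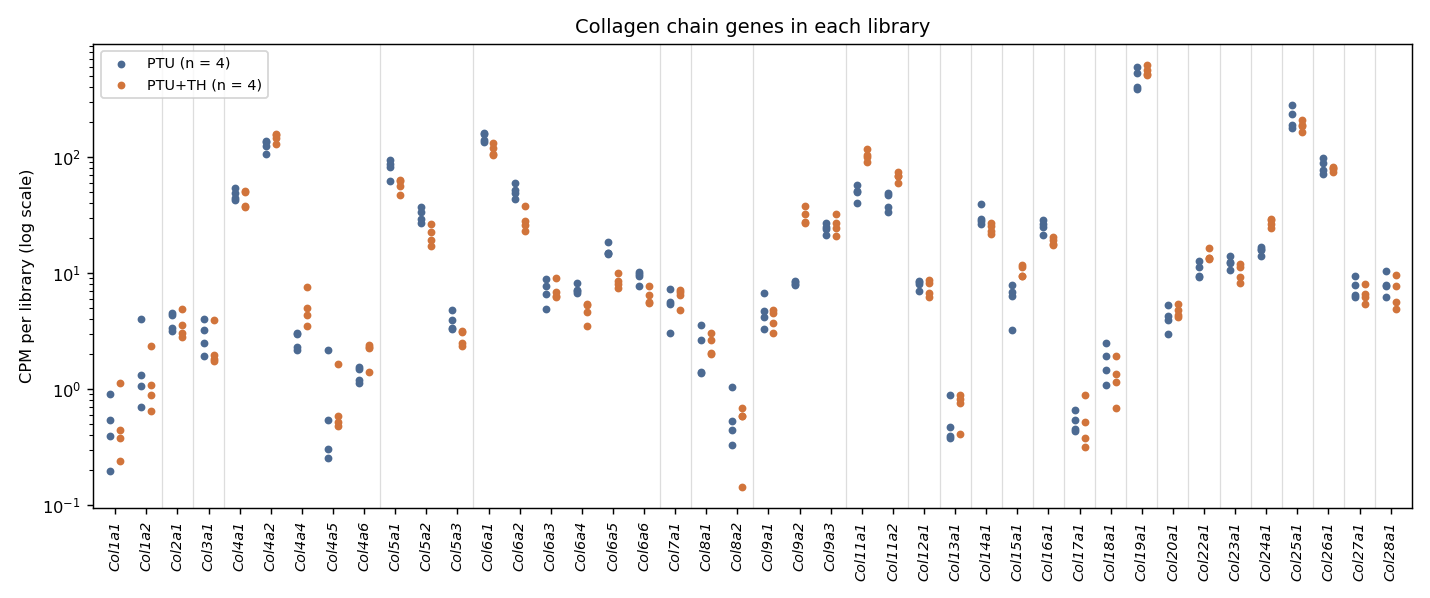
CPM of the 42 tested collagen chain genes in each of the 8 libraries on a log axis, with PTU libraries in blue, PTU+TH libraries in orange and grey lines between collagen types. Col19a1 lies highest, between 382 and 620 CPM, and Col9a2 shows the widest gap between the groups.

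The levels spanned a wide range. Without regard to length, Col19a1 held the most counts of the family (515 CPM over the 8 libraries), followed by Col25a1 (204 CPM), Col4a2 (136 CPM) and Col6a1 (132 CPM). Levels of different genes were compared per length in both available ways, because the files do not state whether introns were counted. All 1265 protein-coding genes inside another gene were at 0, which counting over exons alone would not give for genes within introns. The length of the gene body is therefore the better match to these counts. The 2 groups were ranked apart, since some of these genes differ between them. Per kb of gene body not shared with another gene, the leading 5 in PTU were Col6a1 at 8.53 CPM per kb, Col6a2 at 1.83, Col11a2 at 1.53, Col19a1 at 1.47 and Col4a2 at 1.07. In PTU+TH they were Col6a1 at 6.65 CPM per kb, Col11a2 at 2.49, Col9a2 at 1.96, Col19a1 at 1.70 and Col4a2 at 1.25. Col9a2 was at 0.51 CPM per kb in PTU, and Col6a2 at 1.03 in PTU+TH, both outside the leading 5 there. Per kb of exon, Col19a1 (69.3 CPM per kb in PTU, 80.1 in PTU+TH), Col6a1 (33.9 and 26.4), Col4a2 (18.9 and 22.2) and Col25a1 (17.1 and 14.5) led in both groups. The order among the leading chains therefore depends on the length used and on the group.

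Few counts limit 7 members, those with a mean under 30 counts per library. Col10a1, the chain of hypertrophic cartilage, was listed at 0 in all 8 libraries. It lies wholly inside Nt5dc1 on the opposite strand, and all 1265 protein-coding genes that lie inside another gene were at 0, against 21.5% of 11727 genes free of overlap, so this 0 is not read as absence. Col4a3 had 3 to 27 counts per library and was not tested. Other genes cover part of it, with 77.6% of its body and 50.0% of its exons free, which makes its counts less certain. Its groups overlapped, at 0.13 to 0.53 CPM in PTU and 0.38 to 1.23 CPM in PTU+TH. Col1a1, Col4a5, Col8a2, Col13a1 and Col17a1 passed the filter with mean counts of 12.5 to 19.8 and SEs of 0.44 to 0.67 on their log2 fold changes. Differences in these 5 chains were not detectable at this depth unless large. The other 37 tested members had means of at least 30 counts.

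**Figure D2:**
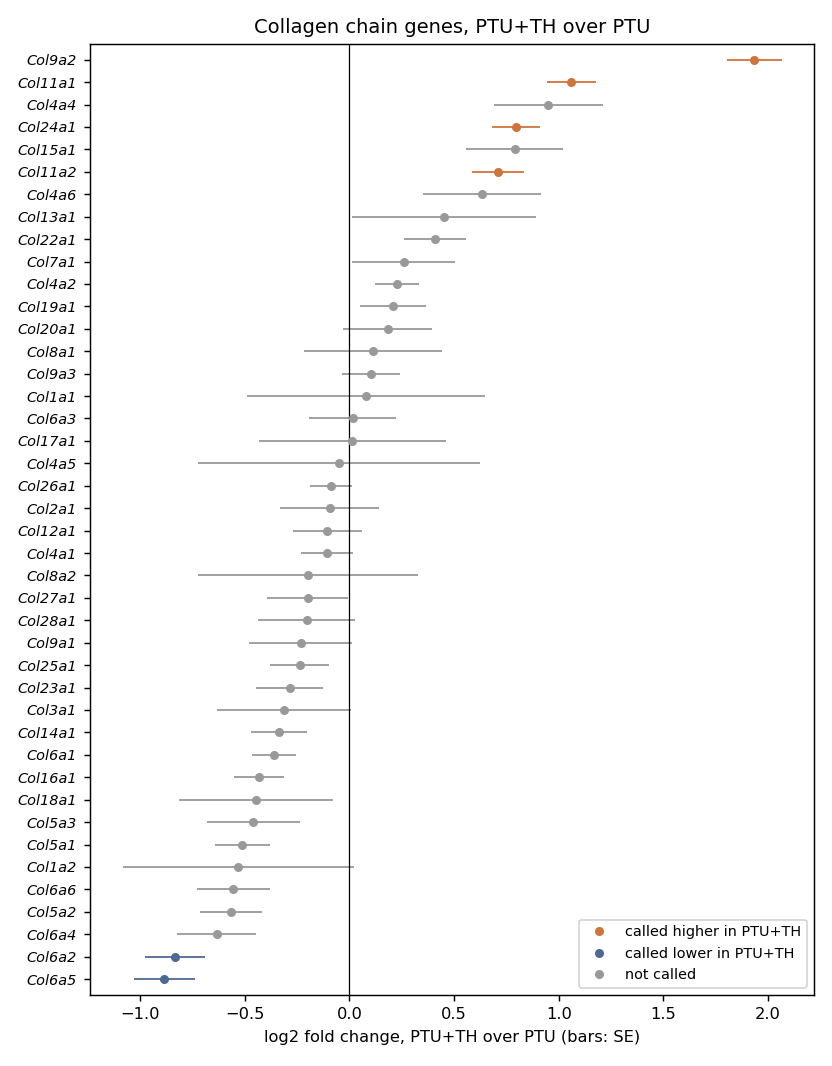
Log2 fold change of PTU+TH over PTU for each of the 42 tested collagen chain genes, ordered by value, with bars for the SE from the edgeR fit over 8 libraries. The 4 chains called higher are orange, the 2 called lower are blue and the others are grey.

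Type IX collagen is a FACIT of cartilage made of the products of Col9a1, Col9a2 and Col9a3. Col9a2 (chromosome 4, 121039385 to 121055322, GRCm38) was at 7.87, 8.05, 8.31 and 8.49 CPM in PTU mice 9 to 12, as against 37.6, 32.4, 27.7 and 27.2 CPM in PTU+TH mice 13 to 16. Every PTU+TH library lay more than 3-fold above every PTU library, and the PTU values were close together. The gene rose 3.82-fold (edgeR log2 fold change 1.93 ± 0.13 SE, adjusted p = 5.1e-06, n = 4 each). Col9a3 was at 21.1, 26.8, 24.1 and 24.7 CPM in PTU, as against 32.3, 20.7, 26.8 and 24.3 CPM in PTU+TH, with overlapping groups (edgeR log2 fold change 0.10 ± 0.14 SE, adjusted p = 0.854). Col9a1 was lower in level, at 3.32 to 6.78 CPM in PTU and 3.04 to 4.81 CPM in PTU+TH, and did not pass (edgeR log2 fold change -0.23 ± 0.25 SE, adjusted p = 0.797). Of the 3 chains of this type only Col9a2 was called.

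The balance within type IX was followed as the log2 ratio of Col9a2 to Col9a3 counts in each library, with 0.5 added to each count. It was -1.56 ± 0.13 in PTU, as against 0.27 ± 0.26 in PTU+TH (mean ± SD, n = 4 each), without overlap. The same held for Col9a1 to Col9a2, with -0.83 ± 0.41 and -2.96 ± 0.45. Such ratios were taken for all 34 pairs of tested chains of the same type. In 9 pairs the groups did not overlap, each with an exact permutation p of 0.0286 (two-sided), the smallest that 70 arrangements allow, and with a Benjamini-Hochberg adjusted p of 0.108 over the 34 pairs. No pair thus passed 0.05 after adjustment. With 0.0286 as the smallest p and 34 pairs, no pair could pass alone, however large its shift. This outcome therefore says nothing about a single ratio.

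Type XI collagen lies inside the fibrils of cartilage, where its chains and the type II chain set fibril thickness. Col11a1 (chromosome 3, 114030540 to 114220718) was at 40.0, 57.5, 49.8 and 50.5 CPM in PTU mice 9 to 12, as against 105, 118, 90.6 and 99.1 CPM in PTU+TH mice 13 to 16. It rose 2.08-fold without overlap (edgeR log2 fold change 1.06 ± 0.12 SE, adjusted p = 0.000293). Col11a2 (chromosome 17, 34039437 to 34066685), the partner chain, was at 36.8, 33.8, 48.7 and 47.1 CPM in PTU, as against 74.2, 69.3, 59.9 and 68.1 CPM in PTU+TH. It too rose without overlap, by 1.63-fold (edgeR log2 fold change 0.71 ± 0.12 SE, adjusted p = 0.00862). Col2a1, whose product can be the third chain of type XI, had 2.81 to 4.95 CPM over all 8 libraries, with overlapping groups (edgeR log2 fold change -0.09 ± 0.24 SE, adjusted p = 0.941). The ratio of Col11a1 to Col11a2 overlapped between the groups (log2 ratio 0.26 ± 0.34 in PTU and 0.60 ± 0.12 in PTU+TH, SD, n = 4 each; exact permutation p = 0.143, adjusted 0.324).

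Col24a1 (chromosome 3, 145292472 to 145552011) encodes another fibril-forming chain, known from developing bone. It was at 14.0, 16.9, 15.9 and 16.1 CPM in PTU mice 9 to 12, as against 28.8, 29.4, 24.3 and 26.6 CPM in PTU+TH mice 13 to 16. The lowest PTU+TH library was above the highest PTU library, and the gene rose 1.74-fold (edgeR log2 fold change 0.80 ± 0.11 SE, adjusted p = 0.00228). Its closest relative by class, Col27a1, was at 6.23 to 9.45 CPM in PTU and 5.36 to 8.01 CPM in PTU+TH and did not pass (edgeR log2 fold change -0.20 ± 0.19 SE, adjusted p = 0.77).

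**Figure D3:**
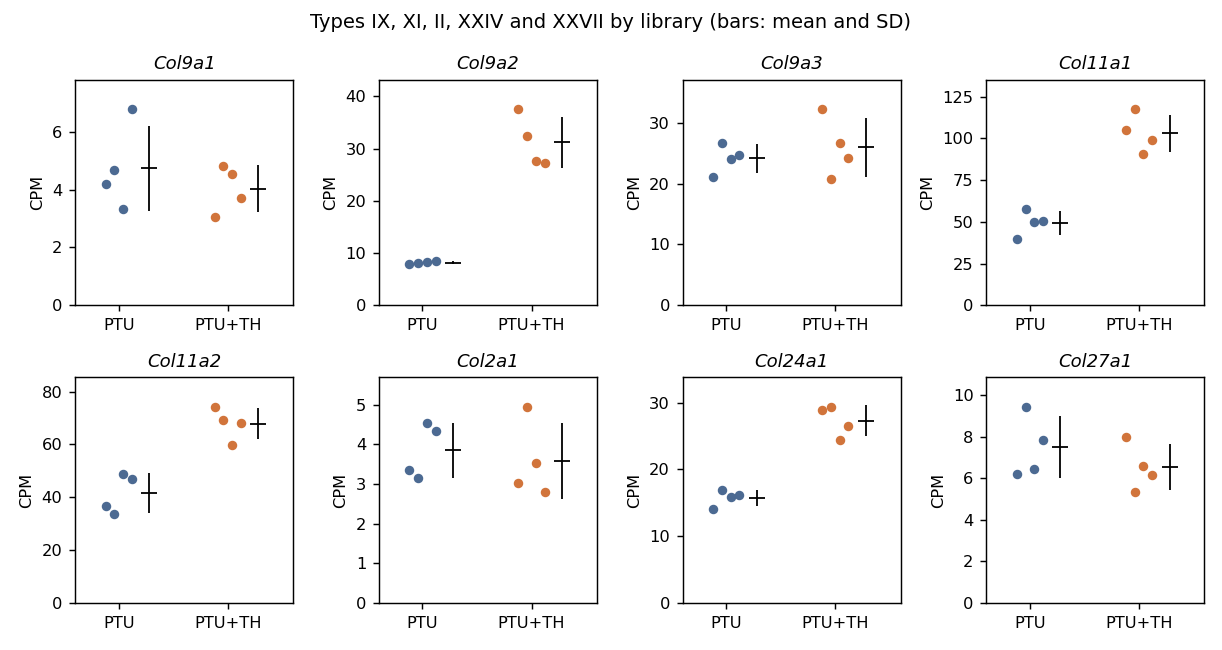
CPM of the chains of types IX, XI, II, XXIV and XXVII in each library from an axis that starts at 0, with PTU in blue, PTU+TH in orange and bars for mean and SD (n = 4 each). Col9a2, Col11a1, Col11a2 and Col24a1 separate the groups, while Col9a1, Col9a3, Col2a1 and Col27a1 overlap.

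Type V collagen forms mixed fibrils with other fibril-forming types and limits their thickness. All 3 of its chains had log2 fold changes below 0 and none was called by edgeR. Col5a1 was at 62.2, 93.4, 87.8 and 82.8 CPM in PTU mice 9 to 12, as against 62.3, 63.3, 56.1 and 46.9 CPM in PTU+TH mice 13 to 16 (edgeR log2 fold change -0.51 ± 0.13 SE, adjusted p = 0.0711). Only PTU mouse 9 lay within the range of PTU+TH, and without it the adjusted p was 0.0079. Col5a2 was at 26.8, 33.5, 37.0 and 29.0 CPM in PTU, as against 26.4, 19.2, 22.6 and 17.04 CPM in PTU+TH, without overlap (edgeR log2 fold change -0.57 ± 0.15 SE, adjusted p = 0.0736). Its adjusted p was 0.0392 without PTU mouse 9 and 0.0489 without PTU+TH mouse 13. Col5a3 was at 3.28 to 4.81 CPM in PTU and 2.33 to 3.20 CPM in PTU+TH (edgeR log2 fold change -0.46, adjusted p = 0.424).

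Over the 11 tested genes of fibril-forming types, 3 were called higher and 0 lower by edgeR (1.49% and 0.634% of all genes), and 5 had an unadjusted p under 0.05, which 12.8% of all genes had. The chains of types I and III, which mark fibroblasts, were low. Col1a1, Col1a2 and Col3a1 averaged 0.53, 1.51 and 2.63 CPM over the 8 libraries, and their log2 fold changes were 0.08, -0.53 and -0.31 (edgeR adjusted p = 0.984, 0.794 and 0.788). The estimate of Col1a2 was 0.27 without PTU mouse 10, where it is highest.

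Type VI collagen is assembled from the products of Col6a1 and Col6a2 together with that of Col6a3 or of one of its relatives Col6a4, Col6a5 and Col6a6. Of these 6 genes, 5 had log2 fold changes below 0, with a median of -0.59 over the 6 against -0.0066 over all genes tested and -0.10 over the 42 members. Col6a5 (chromosome 9, 105856078 to 105960643) was at 18.4, 14.9, 15.0 and 14.5 CPM in PTU mice 9 to 12, as against 9.99, 8.08, 8.50 and 7.47 CPM in PTU+TH mice 13 to 16. It fell without overlap and was 1.85-fold lower (edgeR log2 fold change -0.88 ± 0.14 SE, adjusted p = 0.00571). Col6a2 (chromosome 10, 76595762 to 76623630) was at 49.3, 59.5, 43.9 and 51.9 CPM in PTU, as against 37.5, 28.05, 23.3 and 25.98 CPM in PTU+TH. It fell as well, 1.78-fold (edgeR log2 fold change -0.83 ± 0.14 SE, adjusted p = 0.00862).

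The other type VI chains did not pass. Col6a1 was at 134, 162, 139 and 158 CPM in PTU, as against 133, 120, 105 and 104 CPM in PTU+TH, so that the groups just failed to overlap (edgeR log2 fold change -0.36 ± 0.11 SE, adjusted p = 0.117). Col6a4 was at 6.70 to 8.26 CPM in PTU and 3.47 to 5.41 CPM in PTU+TH (edgeR log2 fold change -0.63, adjusted p = 0.121), and Col6a6 at 7.69 to 10.2 and 5.47 to 7.80 CPM (edgeR log2 fold change -0.55, adjusted p = 0.145). Col6a3 stood apart from the others in its estimate, with 4.95 to 8.96 CPM in PTU, 6.20 to 9.13 CPM in PTU+TH and a log2 fold change of 0.02 (SE 0.21, edgeR adjusted p = 0.992). The log2 ratio of Col6a2 to Col6a3 went from 2.88 ± 0.19 to 2.00 ± 0.51 and that of Col6a3 to Col6a5 from -1.18 ± 0.42 to -0.26 ± 0.32 (SD, n = 4 each; exact permutation p = 0.0286 and adjusted p = 0.108 for both). DESeq2, run on the same counts, called 14 members, where it called 4.63% of the genes to which it gave an adjusted p. Of these 6 were higher and 8 lower, against 2.84% and 1.79% of genes. All type VI chains except Col6a3 were among its 8 lower ones, with Col5a1, Col5a2 and Col16a1.

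**Figure D4:**
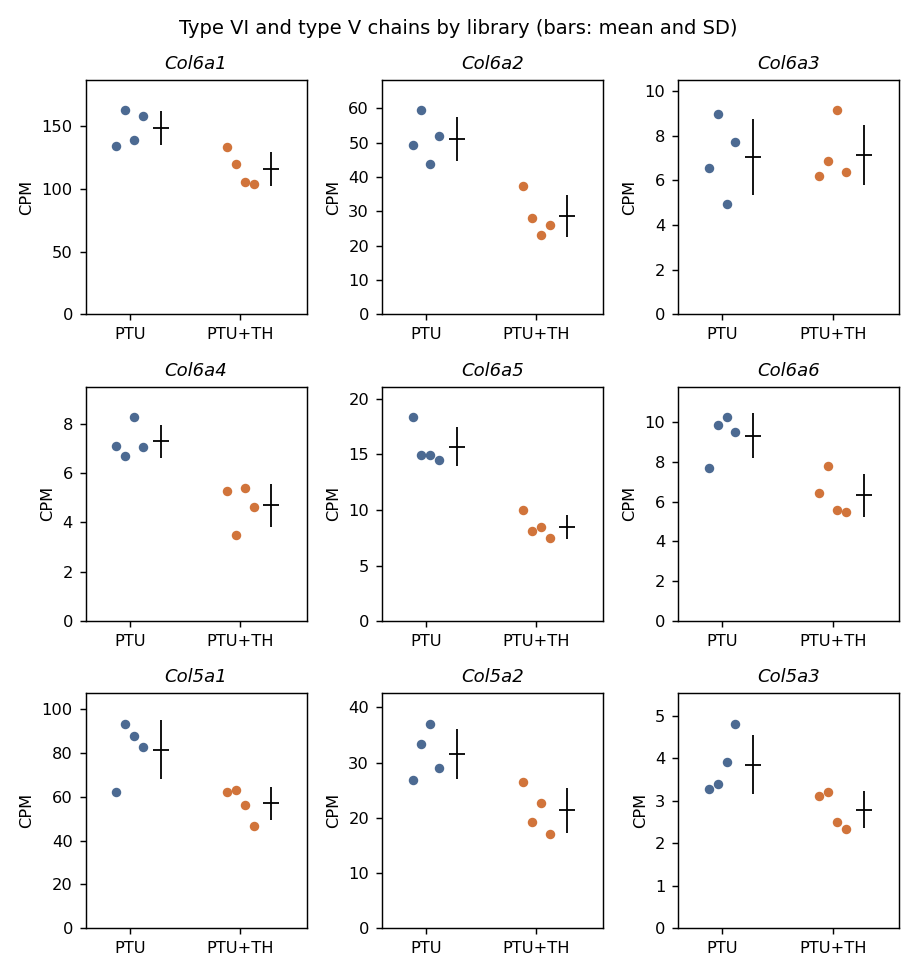
CPM of the type VI and type V chains in each library, each axis starting at 0, with PTU in blue, PTU+TH in orange and bars for mean and SD (n = 4 each). Col6a5, Col6a4 and Col6a2 show gaps between the groups, Col6a3 overlaps, and PTU mouse 9 (leftmost blue point) is the only PTU library within the PTU+TH range of Col5a1.

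Markers of fibroblasts, cells that make much type V and type VI collagen, were set beside these values. The 10 markers of vascular and leptomeningeal fibroblasts summed to 8.88 to 14.7 CPM in PTU and 6.46 to 8.95 CPM in PTU+TH. Of the 4 with enough counts to be tested, 2 had log2 fold changes above 0 (Dcn 0.07, Slc6a13 0.16). The 2 below 0 were Foxc1 (-0.60, edgeR adjusted p = 0.369) and Fbln1. Fbln1 alone was called, lower, as were 0.634% of all genes. It went from 5.14 ± 1.22 CPM in PTU to 2.36 ± 0.68 CPM in PTU+TH (edgeR adjusted p = 0.0381). Of the defining markers, Slc6a13 had 1 to 27 counts and Slc22a6 0 to 13 counts in a library, and Igf2 and Ogn were listed at 0 in all 8 libraries, both of which share nearly all of their bodies with other genes. The part of fibroblasts in the type V and type VI values was not tested.

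The basement membrane chains of type IV lie in head-to-head pairs that share a start region. Col4a1 and Col4a2, which form the common network of vessel walls, overlap by 22 bases at their starts on chromosome 8. Col4a1 was at 42.5 to 53.9 CPM in PTU and 37.3 to 51.1 CPM in PTU+TH (edgeR log2 fold change -0.11 ± 0.13 SE, adjusted p = 0.827). Col4a2 was at 105 to 137 and 129 to 159 CPM (edgeR log2 fold change 0.23 ± 0.11 SE, adjusted p = 0.393). Their log2 ratio was -1.41 ± 0.10 in PTU and -1.75 ± 0.15 in PTU+TH, without overlap (SD, n = 4 each; exact permutation p = 0.0286, adjusted 0.108). Other genes cover part of both, with 94.0% of the body and 76.3% of the exons of Col4a1 free, and 86.3% and 83.4% for Col4a2, which makes the counts of both less certain.

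Col4a4, a chain of the kidney and inner ear network, was at 2.19, 3.01, 2.33 and 3.02 CPM in PTU mice 9 to 12, as against 7.55, 3.47, 4.36 and 5.04 CPM in PTU+TH mice 13 to 16. The groups did not overlap, and mouse 13 was the highest, but edgeR did not call the gene (log2 fold change 0.95, SE 0.26, adjusted p = 0.087). Col4a6 had 1.14 to 1.54 and 1.39 to 2.38 CPM (edgeR log2 fold change 0.63, adjusted p = 0.362). Over the 5 tested type IV chains edgeR called 0 (2.12% of all genes), with 2 at an unadjusted p under 0.05 (12.8% of all genes). DESeq2 called Col4a4 higher (adjusted p = 0.0179), as it did 2.84% of the genes to which it gave an adjusted p.

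Among the 9 FACIT genes Col9a2 alone was called by edgeR (2.12% of all genes were), and 4 had an unadjusted p under 0.05, again against 12.8% of all genes. DESeq2 called Col9a2 and Col16a1, where it called 4.63% of the genes to which it gave an adjusted p. Col19a1 was at 382, 397, 531 and 598 CPM in PTU, as against 515, 565, 509 and 620 CPM in PTU+TH, with wide overlap (edgeR log2 fold change 0.21 ± 0.16 SE, adjusted p = 0.671). Col22a1, a chain of muscle-tendon junctions, was at 9.33 to 12.7 CPM in PTU and 13.3 to 16.4 CPM in PTU+TH without overlap (edgeR log2 fold change 0.41, adjusted p = 0.227). Col16a1 was at 21.2 to 28.6 and 17.3 to 20.5 CPM, again without overlap and in the other direction (edgeR log2 fold change -0.43, adjusted p = 0.0954). Col14a1 was at 26.5 to 39.0 and 21.8 to 26.9 CPM (edgeR log2 fold change -0.34, adjusted p = 0.281). For Col12a1 the log2 fold change was -0.11 (edgeR adjusted p = 0.89), and for Col20a1 it was 0.18 (edgeR adjusted p = 0.826).

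Among the membrane-spanning chains, edgeR and DESeq2 called 0 of 4, where they called 2.12% and 4.63% of all genes, and 0 had an unadjusted p under 0.05 (12.8% of all genes). Col25a1, whose product is found in amyloid plaques, was at 177, 190, 233 and 283 CPM in PTU, as against 166, 188, 184 and 210 CPM in PTU+TH (edgeR log2 fold change -0.24 ± 0.14 SE, adjusted p = 0.556). Col23a1 was at 10.7 to 14.1 and 8.15 to 12.0 CPM (edgeR log2 fold change -0.29, adjusted p = 0.516). Col13a1 and Col17a1, with few counts, had log2 fold changes of 0.45 and 0.01. Both groups overlapped in all 4 genes.

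Col15a1 and Col18a1 encode multiplexins, collagens of basement membrane zones. Col15a1 was at 3.24, 6.28, 6.83 and 7.87 CPM in PTU, as against 11.6, 11.3, 9.45 and 9.37 CPM in PTU+TH, without overlap and with PTU mouse 9 lowest (edgeR log2 fold change 0.79 ± 0.23 SE, adjusted p = 0.119). DESeq2 called it higher (adjusted p = 0.0298). Col18a1 was at 1.09 to 2.48 and 0.68 to 1.94 CPM (edgeR log2 fold change -0.45, adjusted p = 0.71). Its counts are less certain too, as other genes leave 91.5% of its body and 66.5% of its exons free. Of the remaining types, Col7a1, Col8a1, Col8a2, Col26a1 and Col28a1 had log2 fold changes from -0.20 to 0.26 with overlapping groups, and the most abundant of them, Col26a1, was at 83.9 ± 11.6 and 79.0 ± 3.44 CPM (SD, n = 4 each; edgeR adjusted p = 0.825).

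In all, 14 of the 42 tested members (33.3%) showed no overlap between the groups, against 8.71% of all genes. They were 7 on the higher side, against 4.68% of genes, and 7 on the lower, against 4.03%. These were the 6 called genes and 8 uncalled ones, Col4a4, Col15a1 and Col22a1 on the higher side and Col5a2, Col5a3, Col6a1, Col6a4 and Col16a1 on the lower.

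By position, 8 pairs of neighbouring members lay within 100 kb of each other. The tandem of Col6a6, Col6a5 and Col6a4 on chromosome 9 showed -0.55, -0.88 and -0.63 as log2 fold changes, and the pair Col6a2 and Col6a1 on chromosome 10 had -0.83 and -0.36. Col3a1 and Col5a2 on chromosome 1 had -0.31 and -0.57. Col9a1 and Col19a1, 9.21 kb apart on chromosome 1, had -0.23 and 0.21. Of the type IV pairs, Col4a1 and Col4a2 had -0.11 and 0.23, Col4a6 and Col4a5 had 0.63 and -0.05, and Col4a4 had 0.95 beside the untested Col4a3. The 4 genes called higher had no other member within 100 kb.

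Several chains were highest in the mice with the highest vessel markers, in both groups. Other sums were high in these mice too, and the part of RNA from vessels or other cells in these values was not tested. The 8 endothelium markers summed to 58.6, 175, 49.4 and 35.1 CPM in PTU mice 9 to 12 and to 95.3, 39.5, 126 and 54.5 CPM in PTU+TH mice 13 to 16, and mouse 10 and mouse 15 were the highest of their groups. The same mice led their groups in mural cell sums (117 and 90.5 CPM) and astrocyte sums (247 and 374 CPM). Mouse 15 also led its group in the sums of oligodendrocytes (194 CPM), their precursors (40.4 CPM), microglia (78.0 CPM) and excitatory neurons (120 CPM), in which mouse 10 did not lead. Col4a5 was at 0.25, 2.18, 0.54 and 0.31 CPM in PTU, as against 0.59, 0.48, 1.64 and 0.52 CPM in PTU+TH, with the same mice highest. Col1a2 was at 1.06, 4.03, 1.34 and 0.70 CPM in PTU and 0.89, 0.65, 2.36 and 1.09 CPM in PTU+TH, again highest in mice 10 and 15, and Col3a1 likewise, at 3.99 and 3.91 CPM there. Also highest in mice 10 and 15 were Col1a1 (0.90 and 1.14 CPM), Col6a3 (8.96 and 9.13 CPM) and Col8a1 (3.54 and 3.04 CPM). The untested Col4a3 was too (0.53 and 1.23 CPM). Col4a1 did not follow them, with 48.6 and 49.5 CPM in these mice and 53.9 CPM in mouse 12, where the markers were lowest. The endothelium, mural cell and excitatory neuron lists gave 0 called genes of 8, 8 and 7 tested in edgeR (2.12% of all genes), with 0 at an unadjusted p under 0.05 (12.8% of all genes). With the summed endothelium markers as a covariate, all 6 called chains were called, and Col5a2 joined them (edgeR adjusted p = 0.0499).

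**Figure D5:**
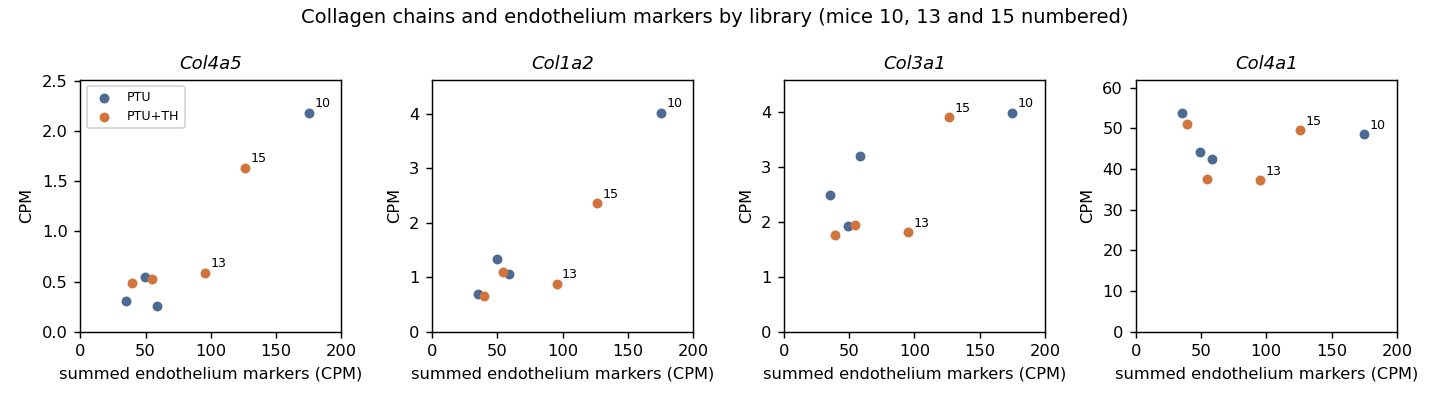
CPM of Col4a5, Col1a2, Col3a1 and Col4a1 against the summed CPM of 8 endothelium markers, 1 point per library, PTU in blue and PTU+TH in orange, with mice 10, 13 and 15 numbered. Mice 10 and 15 are high on both axes for Col4a5, Col1a2 and Col3a1, whereas Col4a1 lies between 37.3 and 53.9 CPM throughout.

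Genes that modify, process, bind or surround collagens were taken from lists. Of 21 tested genes for chain modification and secretion, such as prolyl and lysyl hydroxylases and the chaperone Serpinh1, edgeR and DESeq2 called 0. Over all genes they called 2.12% and 4.63%. In edgeR 2 of the 21 had an unadjusted p under 0.05, where 12.8% of all genes did. The most abundant, the collagen galactosyltransferase Colgalt1, was at 311 ± 42.3 CPM in PTU against 280 ± 53.0 CPM in PTU+TH (edgeR adjusted p = 0.767). Of 12 tested genes for processing, cross-linking and uptake, 1 was called higher and 1 lower, where 1.49% and 0.634% of all genes were, and 3 had an unadjusted p under 0.05 (12.8% of all genes). Adamts2, the protease that removes the amino-terminal propeptide of fibrillar procollagens, was at 3.64, 4.21, 3.76 and 3.67 CPM in PTU mice 9 to 12, as against 13.4, 6.43, 14.4 and 10.7 CPM in PTU+TH mice 13 to 16. It rose 2.93-fold without overlap, with mouse 14 the lowest of its group (SE of the log2 fold change 0.23, edgeR adjusted p = 0.00332). Tll2, a tolloid protease, had 46, 51, 49 and 34 counts in PTU and 15, 13, 0 and 7 counts in PTU+TH. It was called lower (edgeR log2 fold change -2.37, adjusted p = 0.0497) and lost the call under 12 of 17 alternatives. In the libraries with Y-linked counts Adamts2 was not called either.

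Of 10 tested collagen receptors edgeR called 0 (2.12% of all genes), with 1 at an unadjusted p under 0.05 (12.8% of all genes). DESeq2 called 0 (4.63% of all genes). The most abundant were Itgb1, the shared beta subunit of collagen-binding integrins, at 68.6 ± 6.18 and 67.0 ± 1.71 CPM, and Ddr1, a receptor tyrosine kinase for collagen, at 48.2 ± 3.87 and 44.8 ± 3.72 CPM (SD, n = 4 each). Of 16 basement membrane partners 1 was called, higher (1.49% of all genes), and 6 had an unadjusted p under 0.05 (12.8% of all genes). This gene, Lama3, encodes a laminin alpha chain and was at 19.02, 23.8, 28.8 and 30.05 CPM in PTU, as against 61.0, 56.3, 52.0 and 64.9 CPM in PTU+TH, without overlap (edgeR log2 fold change 1.21 ± 0.14 SE, adjusted p = 0.000409). Of 10 tested fibril partners edgeR called 0 (2.12% of all genes), with 2 at an unadjusted p under 0.05 (12.8% of all genes). DESeq2 called 1 (4.63% of all genes), Thbs2 (edgeR log2 fold change 0.80, adjusted p = 0.0559).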

How the data were processed

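Nuclear RNA of 8 libraries was counted by the authors, and the deposited files hold raw read counts per gene symbol, 1 file per mouse, with 0 rows that name no gene. Bowtie2 2.5.3 and the builds mm10 and GRCm38 are named in the submitters' processing notes. The counting program, annotation, use of strand and treatment of introns are not given in the sources used here. All 55341 symbols are in GENCODE M21 (GRCm38), which gave positions and lengths. Total counts of 21762810 to 29084071 per library set the precision. The chi-square per degree of freedom was 8.87 to 79.8 over the 12 pairs of libraries of 1 group, so none was a copy of another.

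Groups came from the sample titles. Counts were fitted with edgeR 4.0.16 (R 4.3.3, filterByExpr, TMM scaling, robust quasi-likelihood test, group as the only term), two-sided, with Benjamini-Hochberg adjustment over 17355 genes. CPM uses TMM-scaled library sizes and is computed here. The SE is the log2 fold change divided by the root of the F statistic. Ratios of chains were compared with exact permutation tests (scipy 1.17.1). Scripts were tested on simulated data. Alternatives were RLE, upper quartile and total scaling, DESeq2 1.42.0, limma 3.58.1 voom, both filters, each library left out, the libraries with Y-linked counts and an endothelial covariate. The members and lists were chosen with earlier results of these data known. Every member may be named, and from each list the called genes and the 2 most abundant. Slc6a13, Slc22a6, Dcn, Npy, Chodl, Igf2, Ogn, Serpinh1, Thbs2 and Nt5dc1 were named outside that rule, after their values were seen. No other column of per-sample values was present.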

Additional observations from a re-analysis of the deposited data

Results flagged for a closer look

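The CPM values of the 42 tested members make 84 sets of 4 mice, and in 6 sets a mouse lay far from the rest by Dixon's gap test, where chance gives about 1 in 20 sets or 4.2. In brackets is its distance to the next mouse divided by the whole spread of the set. Col4a5 was apart in PTU mouse 10, at 2.18 CPM against 0.25 to 0.54 (0.85), and in PTU+TH mouse 15, at 1.64 CPM against 0.48 to 0.59 (0.906). Col3a1 was apart in PTU+TH mouse 15 as well, at 3.91 CPM against 1.75 to 1.95 (0.908). Both of these mice were the highest of their group in the summed endothelium, mural cell and astrocyte markers, and what part RNA of other cells has in these values was not tested. PTU+TH mouse 13 was lowest in Col4a6, at 1.39 CPM against 2.27 to 2.38 (0.888), and highest in Col22a1, at 16.4 CPM against 13.3 to 13.5 (0.921). Col6a5, called lower in PTU+TH, was highest in PTU mouse 9, at 18.4 CPM against 14.5 to 15.0 (0.877), and its log2 fold change over the fits that left out a library ranged from -0.97 to -0.79.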

How the results depend on the processing

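No paired analysis was possible because no mouse number occurs in both groups. Each of the 42 members was refitted under 17 alternatives. Of the 714 values, 667 kept direction and side of the threshold, 14 passed it newly, 3 lost it and 30 changed sign, none of the last in a called gene. DESeq2 gave an adjusted p to 39 of the 42 members, and those without were counted as not passing. Against 6 chains called (4 higher, 2 lower), DESeq2 gave 14 (6 and 8) and the libraries with Y-linked counts 3 (3 and 0), a fit with fewer mice. Fits that left out a library gave 6 to 8. For all genes, 368 became 756 with DESeq2, 58 in the libraries with Y-linked counts and 182 to 499 when a library was left out (233 without PTU mouse 12, and 238, 227, 182 and 209 without PTU+TH mice 13, 14, 15 and 16).  Collagen processing, cross-linking and uptake genes numbered 2, and 1 with upper quartile scaling, library totals, limma voom or the filter of at least 10 counts in at least 4 libraries (Adamts2 each time), 0 in the libraries with Y-linked counts, and 1 to 2 when a library was left out (2 without PTU+TH mouse 15, 1 without any other). Basement membrane partners numbered 1, and 2 with DESeq2. Fibril partners numbered 0, and 1 with DESeq2 (Thbs2) and 0 to 1 when a library was left out (1 without PTU mouse 9). The cause was not tested.

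Signs changed in 9 uncalled genes. In the libraries with Y-linked counts the log2 fold change was -0.32 for Col1a1, 0.062 for Col2a1, -0.11 for Col6a3 and 0.13 for Col8a2. With limma voom it was 0.28 for Col4a5 and -0.071 for Col17a1, with library totals -0.011 for Col6a3, and with the endothelial covariate 0.14 for Col4a5 and -0.0030 for Col6a3. When a library was left out it ranged from -0.52 to 0.51 for Col1a1, -1.03 to 0.27 for Col1a2, -0.29 to 0.0057 for Col2a1, -0.64 to 1.14 for Col4a5, -0.12 to 0.16 for Col6a3, -0.062 to 0.43 for Col8a1, -0.40 to 0.23 for Col8a2, -0.013 to 0.20 for Col9a3 and -0.35 to 0.19 for Col17a1. The largest shift of the all-gene median under another scaling was -0.021, with library totals.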
